A study of Homo sapiens with 9 samples.

Results

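Orphan and adhesion G protein-coupled receptors were followed through 9 arrays of HEK293, an established line derived from human embryonic kidney. The members are the genes whose symbol on the array platform begins with GPR and a digit, with GPRC or with ADGR. GPR39 was left out, and each gene was represented by its 1 probe set with the highest mean over the 9 arrays. This gave 91 genes of 14884 named genes in the table, held by 98 probe sets, and 7 of the genes had more than 1 probe set. No gene was named GPRC on the probe sets used. By their symbols, GPR15LG encodes the ligand of a member and GPR199P is a pseudogene, so at least these 2 of the 91 are not receptors.

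The arrays form 3 groups of 3. The agonist group is HEK293 cells labelled as overexpressing GPR39, a zinc-sensing receptor, after exposure to 1 uM TC-G-1008, a synthetic GPR39 agonist. The GPR39 group carries the same overexpression label and was given 0.03 mg/mL cumate, a small molecule that switches on engineered genes. The mock group is labelled as naive cells without cumate. Cumate is not given in the labels of the agonist arrays, and no exposure time is given. The receptor label and cumate therefore cannot be told apart in GPR39 against mock, nor can the agonist and a possible lack of cumate in agonist against GPR39. In agonist against mock the receptor label and the agonist differ together, so a difference there cannot be assigned to either. Replicates are called biological, with nothing said of separate cultures, so a p-value here reflects array-to-array spread that may be technical. Whether the overexpressing cells are a clone or a pool is not stated.

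G protein-coupled receptors cross the membrane 7 times and pass an outside signal to G proteins and arrestins. Adhesion receptors carry a long extracellular part that is cut by the receptor itself and binds matrix or neighbouring cells. Orphan receptors are those whose natural ligand is unknown or disputed, and some of them, such as GPR3, signal without an added ligand. HEK293 cells are a standard host for expressing such receptors, so their own set of receptor transcripts is part of the background of many assays.

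The probe set of GPR39 itself averaged 2.58 ± 0.11 log2 units in the agonist arrays, 2.58 ± 0.04 in the GPR39 arrays and 2.47 ± 0.07 in mock (SD, n = 3 each). It lay at or below the 40th percentile of every array, so its signal did not separate the groups labelled as overexpressing from mock by level. A probe set outside the introduced sequence would check nothing. Mock replicate 1 stood apart. Over all probe sets its mean correlation was 0.988 with the GPR39 arrays and 0.985 with the other mock arrays, so values without it are given where leaving it out changed a call. The HEK293 genes IRS4, PAX2, LIN28B and VIM were above the 40th percentile on all 9 arrays. IRS4 averaged 9.69 in the agonist arrays, 9.52 in the GPR39 arrays and 10.54 in mock, and it fell in both comparisons with mock. VIM and LIN28B also fell in agonist against mock, by 0.46 and 0.30 on the log2 scale (limma, adjusted p = 0.00368 and 0.0174), and LIN28B fell by 0.41 in agonist against GPR39 (limma, adjusted p = 0.00751). PAX2 did not pass in any comparison. The summed level of the 4 genes ran from 28.4 to 29.1 in the agonist arrays, from 29.2 to 29.4 in the GPR39 arrays and from 30.4 to 31.3 in mock, and its part in the receptor results was not tested. Of 10 measured markers of other cell types, ALB, KRT5, DCN and PECAM1 were at or below that percentile on all 9 arrays. The rest were not: CD14, LAPTM5, APOA1, TTR and KRT14 were above it on all 9 and TYROBP on 8. The summed level of the 10 ran from 29.3 to 29.5 in the agonist arrays, from 27.6 to 29.7 in the GPR39 arrays and from 27.0 to 28.4 in mock, and 0 of the 6 tested passed in any comparison.

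The receptor gene with the widest range over the arrays was GPR3, and its promoter is shown with those of GPR6 and GPR12, which encode its closest relatives. All of them couple to the stimulatory G protein and raise cyclic AMP without an added ligand, and GPR3 is known for holding the oocyte in meiotic arrest. The windows run from 250 bases before to 50 after the annotated start, from RefSeq, build GRCh38.p14. GPR3 is at chr1:27392372-27392671 on the plus strand, GPR6 at chr6:109978061-109978360 on the plus strand and GPR12 at chr13:26760737-26761036 on the minus strand. Capitals mark the cyclic AMP response element TGACGTCA and the AP-1 element in its forms TGACTCA and TGAGTCA, which as a set read the same on both strands.
GPR3: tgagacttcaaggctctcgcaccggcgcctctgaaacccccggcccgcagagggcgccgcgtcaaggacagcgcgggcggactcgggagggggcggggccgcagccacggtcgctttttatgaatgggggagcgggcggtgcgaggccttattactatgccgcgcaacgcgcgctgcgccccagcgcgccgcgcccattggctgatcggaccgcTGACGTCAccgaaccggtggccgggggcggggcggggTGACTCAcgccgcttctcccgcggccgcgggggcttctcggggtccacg
GPR6: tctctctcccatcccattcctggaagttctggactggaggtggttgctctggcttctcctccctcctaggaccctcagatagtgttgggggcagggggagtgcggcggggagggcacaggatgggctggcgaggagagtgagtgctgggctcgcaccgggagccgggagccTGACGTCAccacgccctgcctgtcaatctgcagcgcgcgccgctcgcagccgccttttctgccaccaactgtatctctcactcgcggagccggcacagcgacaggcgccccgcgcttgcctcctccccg
GPR12: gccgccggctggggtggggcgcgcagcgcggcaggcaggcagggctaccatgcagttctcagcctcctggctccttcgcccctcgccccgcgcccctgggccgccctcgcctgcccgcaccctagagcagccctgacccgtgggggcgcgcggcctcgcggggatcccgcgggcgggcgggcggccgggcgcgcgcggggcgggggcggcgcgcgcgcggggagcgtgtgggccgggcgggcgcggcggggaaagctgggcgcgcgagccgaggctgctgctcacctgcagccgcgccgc

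Both elements were found in the GPR3 window, the cyclic AMP response element with its first base 36 bases before the start and the AP-1 element with its first base at position 2 of the transcript, without overlap. GPR6 held a cyclic AMP response element with its first base 79 bases before the start and no AP-1 element, and GPR12 held neither. Of 35116 RefSeq promoter windows of this length, 1.85% hold the cyclic AMP response element, 4.95% an AP-1 element and 0.0541% both, which is 19 windows. Counted by gene, as the members are, the shares are 2.25%, 6.05% and 0.0696% of 27305 genes. Of the 69 members with a window in the table, 2 (GPR3 and GPR6) held the first element, 4 (ADGRF4, ADGRG1, GPR176 and GPR3) the second and 1 (GPR3) both. The motifs were searched after the GPR3 values were seen, and a match is a string of letters, not a measured site.

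Signals are log2 values per probe set. A member was tested when it exceeded the 40th percentile of its array, between 2.63 and 2.70 log2 units, on at least 3 of the 9 arrays. Of the 91 members 71 did so, or 78.0%, while 80.1% of all named genes did. Of those, 60 members were above it on all 9 arrays and 11 on 3 to 8 of them. The remaining 20 members comprised 3 that were above it on 1 or 2 arrays and 17 that were above it on none. Between 67 and 70 members exceeded the percentile on each agonist array, between 68 and 71 on each GPR39 array and 66 or 67 on each mock array. The brightness of different probe sets does not rank their transcripts, so levels are compared only within a gene. Where many cells give 1 sample, fewer expressing cells and less RNA per cell cannot be told apart.

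**Figure D1:**
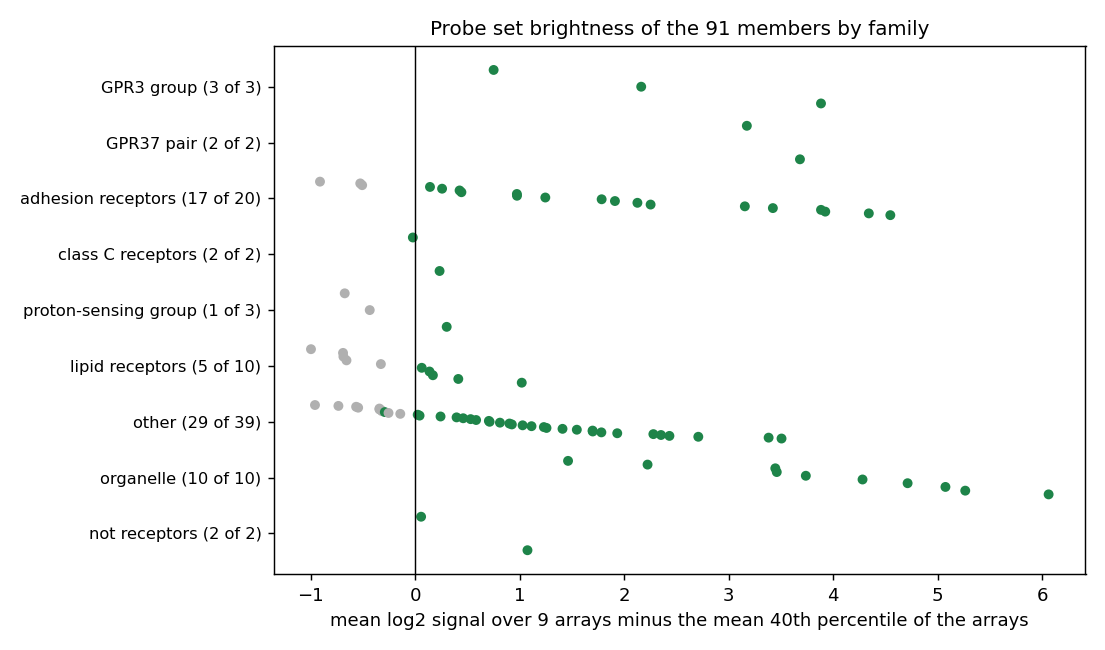
Mean log2 signal of each of the 91 members over 9 arrays minus the mean 40th percentile of the arrays (x axis), by family (y axis, with the number tested of the number of members). Green points are the 71 members tested and grey points the 20 not tested, and all 10 organelle membrane proteins lie right of the line.

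The number of members that reached this level is given by family, with no test between families. All 10 genes for membrane proteins of internal compartments did so on every array, among them GPR89A and GPR89B of the Golgi pH regulator, GPR107 and GPR108 of the Golgi, GPR137, GPR137B and GPR155 of lysosomes and GPR143 of melanosomes. Of 20 adhesion receptor genes 17 were tested, and ADGRB3, ADGRG4 and ADGRG7 were above the percentile on no array. Of 10 receptors for lipid ligands 5 were tested, namely GPR31, GPR35, GPR55, GPR119 and GPR183. The other 5, GPR18, GPR32, GPR34, GPR84 and GPR174, were above it on no array. Of the proton-sensing group GPR132 was tested, and GPR4 and GPR65 were above it on no array. The class C genes GPR158 and GPR179 were tested, GPR179 through 4 arrays. The GPR3 group and the pair GPR37 and GPR37L1 were above it on all 9 arrays.

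Of the other 39 class A or unclassified receptors 29 were tested. GPR17, GPR22, GPR33, GPR82, GPR85, GPR141 and GPR171 were above the percentile on no array, GPR139 and GPR148 on 1 array and GPR15 on 2. By mean, the members just over the percentile were GPR78, GPR151 and GPR15LG at 0.03, 0.04 and 0.06 log2 units above it, and those just under it were GPR179, GPR141 and GPR15 at 0.02, 0.14 and 0.25 units below it (distances of -0.02, -0.14 and -0.25). Some values repeat exactly, in dim and in brighter members. GPR15LG had the same value on 6 of 9 arrays, 31 of the 71 tested members had equal values on at least 2 arrays of a group, and 9 of the 91 had equal values on all 3. What made these ties was not tested, and they narrow the spread within a group.

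GPR3 had the largest differences of the 71 tested genes in both comparisons with mock. Its log2 signal was 7.28, 7.48 and 7.49 on the agonist arrays, 6.83, 6.98 and 6.86 on the GPR39 arrays, and 5.72, 5.23 and 5.01 on the mock arrays. The groups did not overlap, with every agonist array above every GPR39 array and every GPR39 array above every mock array. GPR3 rose in agonist against mock by 2.10 ± 0.17 (SE; limma, adjusted p = 0.000176), or 4.28-fold, and in GPR39 against mock by 1.57 ± 0.17 (limma, adjusted p = 0.0055), or 2.96-fold. In agonist against GPR39 the difference of 0.53 ± 0.17, with a 95% interval from 0.14 to 0.92, did not pass (limma, adjusted p = 0.0989). All 3 comparisons draw on the same 3 groups and are not independent of each other.

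Mock replicate 1 had the highest GPR3 signal of the mock arrays. Without it GPR3 was higher by 2.30 in agonist against mock (limma, adjusted p = 4.48e-05) and by 1.77 in GPR39 against mock (limma, adjusted p = 0.000799). The 0.53 in agonist against GPR39 then passed, with an adjusted p of 0.0172 in limma, and it also passed when only those 6 arrays were fitted (adjusted p = 0.0248). The calls against mock held under all 19 alternative settings tried.

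GPR6 and GPR12, named here as relatives of GPR3 after their values were seen, did not pass in any comparison. GPR6 averaged 4.96 ± 0.09 in the agonist arrays, 4.87 ± 0.07 in the GPR39 arrays and 4.63 ± 0.24 in mock (SD, n = 3 each). Its difference in agonist against mock was 0.33, with a 95% interval from 0.05 to 0.61 (limma, adjusted p = 0.110). Its agonist and mock arrays overlapped. GPR12 averaged 3.37 ± 0.03 in the agonist arrays, 3.45 ± 0.26 in the GPR39 arrays and 3.41 ± 0.06 in mock, and its difference in agonist against mock was -0.04, with an interval from -0.32 to 0.24.

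GPR37, an endothelin-receptor-like receptor for which prosaposin is a reported ligand, went the other way. Its log2 signal was 5.94, 6.04 and 5.84 on the agonist arrays, 6.27, 6.45 and 6.28 on the GPR39 arrays, and 6.68, 6.77 and 6.79 on the mock arrays. Again no groups overlapped, with the agonist arrays lowest and the mock arrays highest. GPR37 fell in agonist against mock, with a log2 change of -0.81 ± 0.08 (limma, adjusted p = 0.000581) that held under all 19 alternatives. It fell in agonist against GPR39, with a change of -0.39 ± 0.08 (limma, adjusted p = 0.0242). That call was lost with only the 2 groups compared, without agonist replicate 1 or 3 and without any single GPR39 array. Over the alternatives its adjusted p in limma reached 0.0855. In GPR39 against mock the change of -0.42 ± 0.08 did not pass (limma, adjusted p = 0.0623), and without mock replicate 1 it was -0.45 and did (adjusted p = 0.0461).

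GPR37L1, the closest relative of GPR37, did not pass in any comparison and is named after its values were seen. It averaged 5.95 ± 0.16 in the agonist arrays, 5.80 ± 0.02 in the GPR39 arrays and 5.75 ± 0.06 in mock (SD, n = 3 each). The prosaposin gene PSAP averaged 9.43, 9.36 and 9.51 in the agonist, GPR39 and mock arrays and did not pass either.

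**Figure D2:**
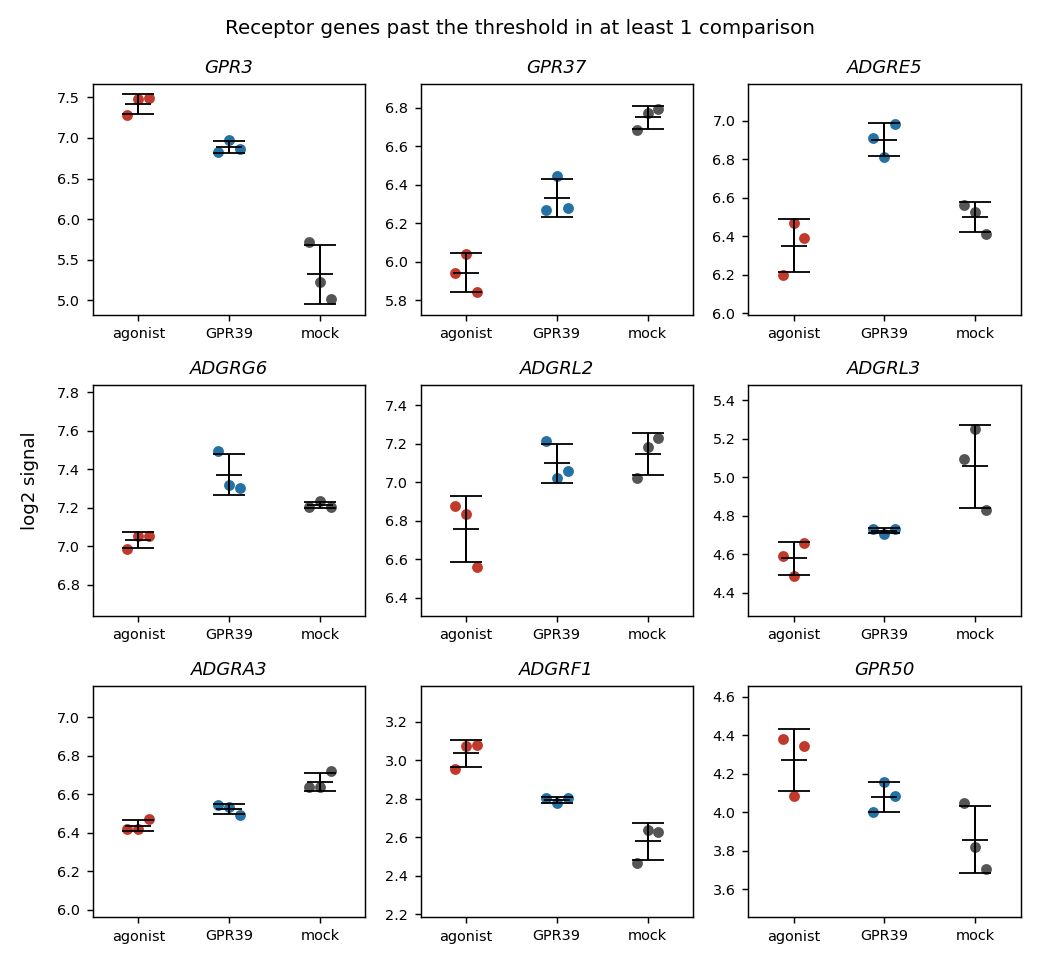
Log2 signal (y axis) of the 9 receptor genes past the threshold in at least 1 comparison, by group (x axis), with each array as a point and the mean and SD of 3 arrays in black. Each panel has its own y axis, and GPR3 is highest and GPR37 lowest on the agonist arrays.

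Among adhesion receptors, ADGRE5 and ADGRG6 fell in agonist against GPR39. ADGRE5, known as CD97, is a receptor for the complement regulator CD55 and is best known from leukocytes. Its log2 signal was 6.20, 6.47 and 6.39 on the agonist arrays, 6.91, 6.81 and 6.98 on the GPR39 arrays, and 6.56, 6.52 and 6.41 on the mock arrays. The GPR39 arrays were all above the arrays of the other groups, whose ranges overlapped. ADGRE5 changed by -0.55 ± 0.09 in agonist against GPR39 (limma, adjusted p = 0.00965), a call that held under all 19 alternatives. In GPR39 against mock its difference of 0.40 ± 0.09 did not pass (limma, adjusted p = 0.0949), nor did the -0.15 ± 0.09 in agonist against mock (limma, adjusted p = 0.329).

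ADGRG6, known as GPR126, is needed for myelination by Schwann cells. Its log2 signal was 6.99, 7.06 and 7.06 on the agonist arrays, 7.49, 7.32 and 7.30 on the GPR39 arrays, and 7.20, 7.23 and 7.21 on the mock arrays. As with ADGRE5 the GPR39 arrays were highest, and here the agonist arrays were lowest without overlap. The change in agonist against GPR39 was -0.34 ± 0.07 (limma, adjusted p = 0.0236). It did not pass in the other comparisons, at -0.18 ± 0.07 in agonist against mock and 0.16 ± 0.07 in GPR39 against mock. The call was lost without any single agonist or GPR39 array, with only the 2 groups compared and with the replicate block. Over the alternatives its adjusted p in limma was up to 0.0723.

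In agonist against mock the adhesion genes ADGRL3, ADGRL2 and ADGRA3 fell and ADGRF1 rose. ADGRL2 and ADGRL3 encode latrophilins, which bind teneurins and FLRT proteins on neighbouring cells. ADGRL3 read 4.59, 4.49 and 4.66 on the agonist arrays and 5.09, 5.25 and 4.83 on the mock arrays, a change of -0.48 ± 0.11 (limma, adjusted p = 0.0213). ADGRL2 read 6.87, 6.84 and 6.56 on the agonist arrays and 7.02, 7.18 and 7.23 on the mock arrays, a change of -0.39 ± 0.11 (limma, adjusted p = 0.0448). In both genes every agonist array lay below every mock array. ADGRL1, the latrophilin gene left, changed by -0.09 and did not pass. Its other probe set read 0.33 higher, with neither passing, so the probe sets of this gene differ in sign.

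ADGRA3, known as GPR125, read 6.42, 6.42 and 6.47 on the agonist arrays and 6.64, 6.64 and 6.72 on the mock arrays, a change of -0.23 ± 0.06 (limma, adjusted p = 0.0373). These 3 falls depended on single arrays and on the processing. With only the 2 groups compared, or with the replicate numbers as a block, none of them passed. Without a filter, with centring on the 75th percentile and with quantile normalization ADGRL3 passed, and ADGRL2 and ADGRA3 did not. The call of ADGRL3 was lost without agonist replicate 1 or 2 or mock replicate 1 or 2, with a change of -0.46 without mock replicate 1. That of ADGRL2 was lost without any agonist array, any GPR39 array or mock replicate 2 or 3. That of ADGRA3 was lost without any 1 of the 9, with a change of -0.24 without mock replicate 1. The highest adjusted p over the alternatives was 0.073 for ADGRL3, 0.124 for ADGRL2 and 0.140 for ADGRA3 in limma.

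ADGRF1, known as GPR110, read 2.96, 3.07 and 3.08 on the agonist arrays, 2.80, 2.78 and 2.80 on the GPR39 arrays, and 2.47, 2.64 and 2.63 on the mock arrays. All 3 mock arrays were at or below the 40th percentile. With that percentile in place of the dimmer mock values, the gene stood at least 0.39 log2 units higher in agonist than in mock, a bound without a test. The measured means were 3.04 in agonist and 2.58 in mock, and their difference of 0.46 passed (limma, adjusted p = 0.00435). That p-value rests on the mock values at or below the percentile. ADGRF1 was tested only because its agonist and GPR39 arrays were above the percentile, and under the filter at the array median it was not tested.

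ADGRV1, a large adhesion receptor whose loss causes Usher syndrome, had the widest range of the adhesion genes and is named after its values were seen. It read 5.80, 5.85 and 5.55 on the agonist arrays, 5.43, 5.50 and 5.37 on the GPR39 arrays, and 5.68, 6.53 and 6.62 on the mock arrays. Mock replicate 1 lay within the range of the agonist arrays and below the other mock arrays. Its change of -0.84 ± 0.23 in GPR39 against mock did not pass (limma, adjusted p = 0.150), nor did its -0.54 in agonist against mock (limma, adjusted p = 0.163). Without mock replicate 1 it passed, with a change of -1.14 in GPR39 against mock (limma, adjusted p = 0.00473) and of -0.84 in agonist against mock (limma, adjusted p = 0.00357).

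GPR50, a relative of the melatonin receptors that does not bind melatonin, read 4.38, 4.09 and 4.34 on the agonist arrays, 4.0, 4.16 and 4.09 on the GPR39 arrays, and 4.05, 3.82 and 3.70 on the mock arrays. It rose in agonist against mock by 0.41 ± 0.11 (limma, adjusted p = 0.0465). That call was lost in 13 of 19 alternatives, among them each one that left out agonist replicate 1 or 3, any GPR39 array, or mock replicate 2 or 3, with adjusted p in limma up to 0.132.

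The members were then counted against all probe sets tested. In GPR39 against mock, 1 of 71 tested members was called higher and 0 lower, against 0.749% of all 33376 probe sets called higher and 0.422% called lower. At an unadjusted p under 0.05, 4 members were higher and 4 lower in limma. In agonist against GPR39, 0 members were called higher and 3 lower (4.23%), against 3.12% of all probe sets called higher and 5.95% called lower. At an unadjusted p under 0.05 there were 4 and 6. In agonist against mock, 3 members were called higher (4.23%) and 4 lower (5.63%), against 6.11% and 8.94% of all probe sets. At an unadjusted p under 0.05 there were 10 and 10. The shares in the comparisons of the agonist arrays lay near or below the background, and the 1 call in GPR39 against mock is a single gene.

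With arrays centred on their 75th percentile, 4 members were called higher and 2 lower in agonist against mock. Over all probe sets that centring gave 2771 higher and 2159 lower there, against 2039 and 2983 as deposited, and 310 and 105 in GPR39 against mock, against 250 and 141. Without mock replicate 1, GPR39 against mock had 1 member higher and 2 lower (ADGRV1 and GPR37), with 419 probe sets higher and 905 lower over the whole table. Agonist against mock then had 3 members higher and 3 lower, with 1859 and 3110 over the whole table.

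The median log2 difference of the tested members was 0.01 in GPR39 against mock and 0.00 in both comparisons of the agonist arrays, where all probe sets tested had medians of 0.01, 0.01 and 0.02. Positive and negative differences numbered 38 and 33 in agonist against GPR39, 35 and 36 in agonist against mock, and 42 and 29 in GPR39 against mock. For most members the arrays bounded the change in signal. The 95% interval lay within 1.5-fold in either direction for 59 of 71 members in agonist against GPR39, for 52 in agonist against mock and for 56 in GPR39 against mock. Over all probe sets tested the shares were 64.7%, 59.9% and 70.8%. The members counted include some near the percentile or with tied values, such as GPR119 and GPR15LG. For those a narrow interval need not bound the change of the transcript.

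**Figure D3:**
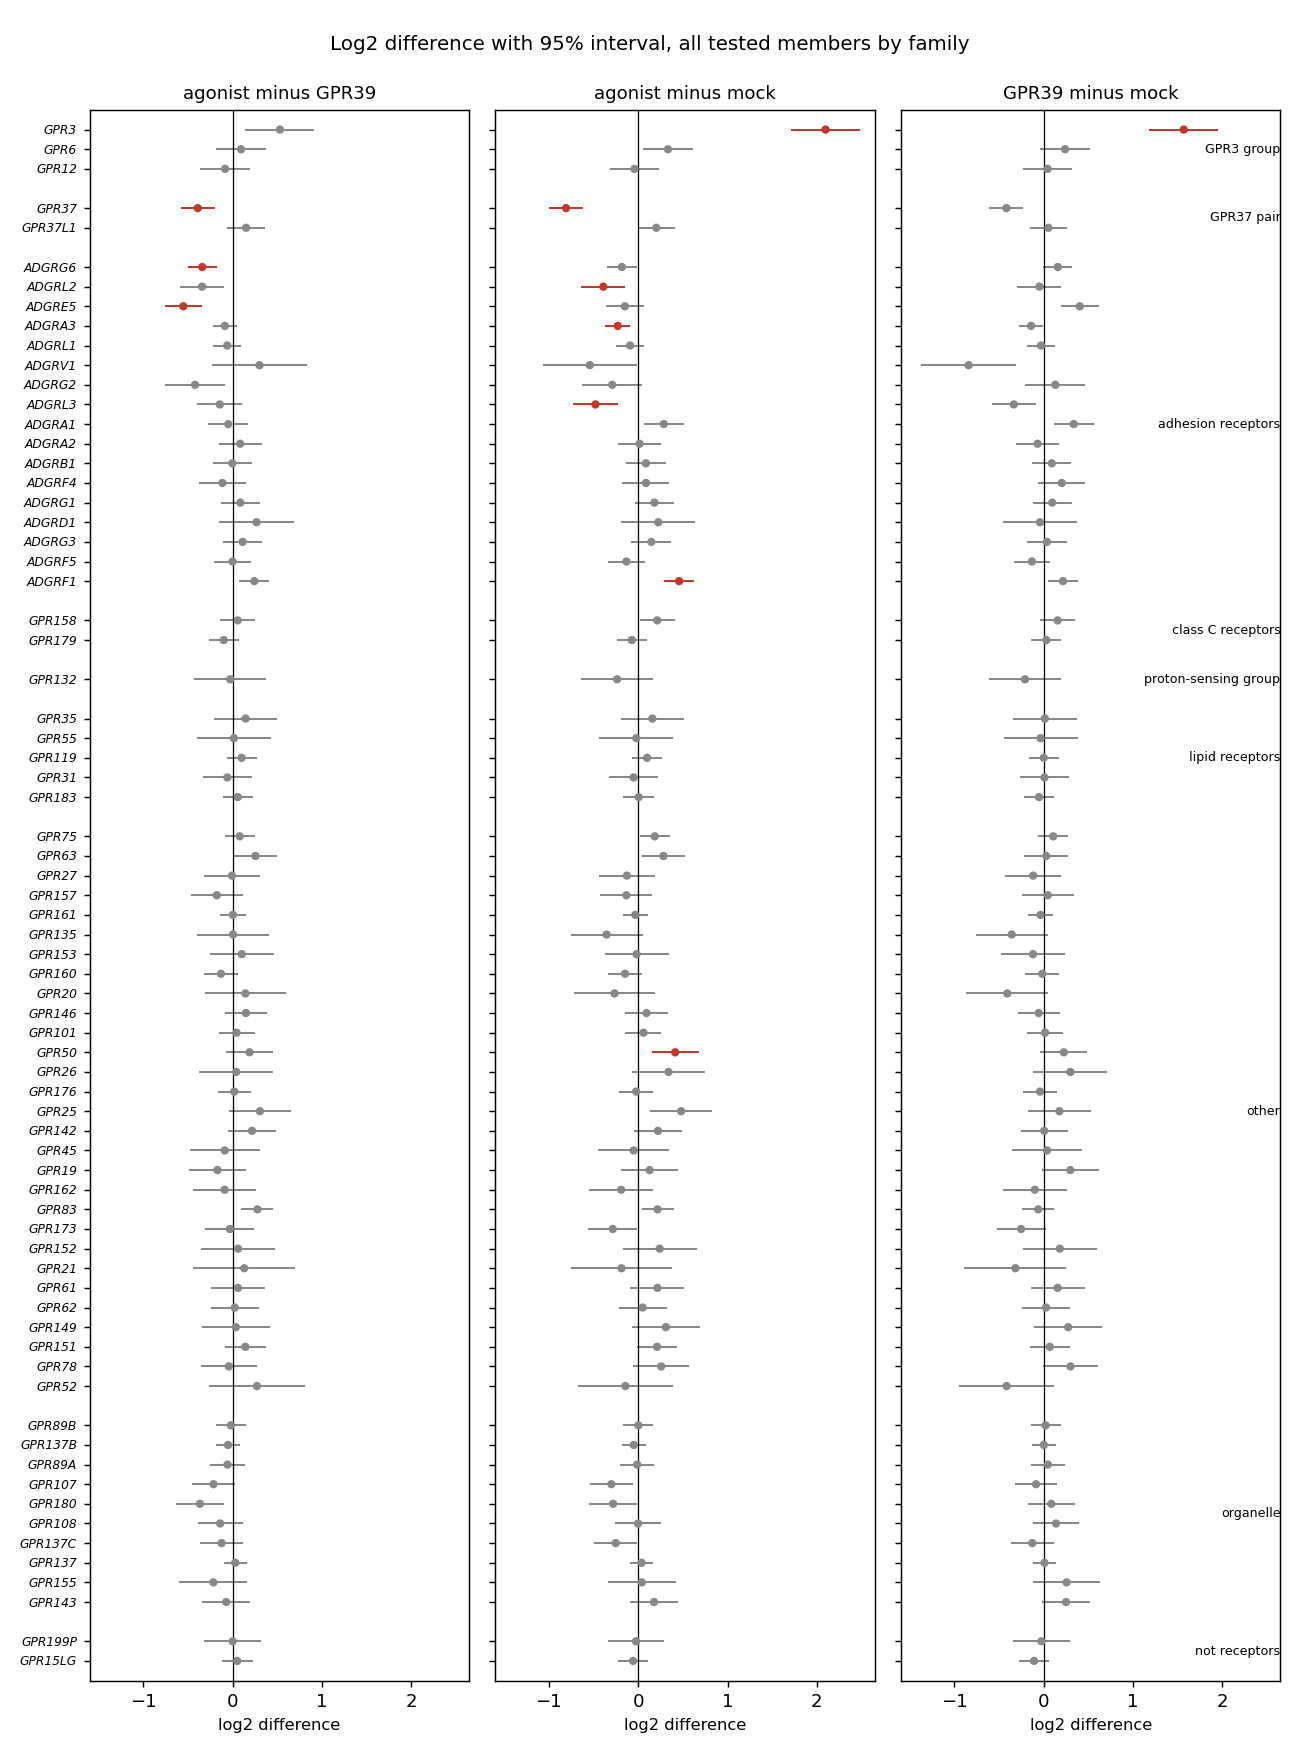
Log2 difference (x axis, point) with its 95% interval (line) for the 71 tested members by family (y axis), in agonist minus GPR39, agonist minus mock and GPR39 minus mock. Red marks a Benjamini-Hochberg adjusted p under 0.05 in limma, and only GPR3 has a difference beyond 1 unit.

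The 10 genes for proteins of internal membranes gave no call in any comparison. GPR137B, which regulates lysosomes and mTORC1, averaged 7.89 ± 0.04 in the agonist arrays, 7.94 ± 0.02 in the GPR39 arrays and 7.94 ± 0.02 in mock (SD, n = 3 each). Its 95% interval ran from -0.19 to 0.08 in agonist against GPR39 and from -0.13 to 0.14 in GPR39 against mock. GPR89A and GPR89B are near-identical copies, so their values are uncertain as to which copy they measure. They averaged 7.71 and 8.72 in the agonist arrays, 7.77 and 8.73 in the GPR39 arrays, and 7.72 and 8.71 in mock. The other probe set of GPR89A averaged 5.21, 5.04 and 5.24 in the same order of groups and did not pass.

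GPR107 read 7.15, 7.04 and 7.41 on the agonist arrays, 7.37, 7.48 and 7.39 on the GPR39 arrays, and 7.41, 7.59 and 7.50 on the mock arrays. Its difference of -0.30 ± 0.10 in agonist against mock did not pass (limma, adjusted p = 0.0961) but passed without agonist replicate 3. GPR180, which encodes a membrane protein linked to TGF-beta signalling, read 6.52, 7.0 and 6.66 on the agonist arrays, 7.08, 7.10 and 7.09 on the GPR39 arrays, and 6.97, 7.05 and 7.0 on the mock arrays. Its -0.37 ± 0.11 in agonist against GPR39 did not pass (limma, adjusted p = 0.0960), and without agonist replicate 2 it was -0.50 and passed (adjusted p = 0.0135), as did agonist against mock at -0.42. GPR108 differed by -0.14 in agonist against GPR39, with no call in any comparison. Across this family 9 of 10 differences were negative in agonist against GPR39, with a median of -0.10. In agonist against mock 6 of 10 were negative, with a median of -0.01, and in GPR39 against mock 2 of 10 were, with a median of 0.03. The first and the last of these share the GPR39 arrays, and the small differences of GPR89A, GPR137B and GPR108 in agonist against mock turned positive with centring on the 75th percentile.

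The other families gave few calls. In the 29 other class A or unclassified receptors GPR50 was the only call over the 3 comparisons, and the differences of all 29 ran from -0.18 to 0.30 in agonist against GPR39, from -0.35 to 0.48 in agonist against mock and from -0.42 to 0.30 in GPR39 against mock. None of the 5 tested lipid receptors passed, with differences between -0.06 and 0.16 over the 3 comparisons. GPR158, GPR179 and GPR132 did not pass either. The not-receptor members GPR15LG and GPR199P differed by at most 0.11 in size. GPR78 and GPR151, just over the percentile, differed by 0.26 and 0.21 in agonist against mock without a call.

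Several members differed at an unadjusted p under 0.05 but did not pass, and they are named after their values were seen. ADGRA1 read 4.83, 4.56 and 4.56 on the agonist arrays, 4.68, 4.76 and 4.66 on the GPR39 arrays, and 4.28, 4.33 and 4.49 on the mock arrays. Every mock array lay below the arrays of the other groups, with differences of 0.29 in agonist against mock (limma, adjusted p = 0.0905) and 0.34 in GPR39 against mock (limma, adjusted p = 0.167). It passed in agonist against mock when arrays were centred on the 75th percentile. ADGRG2, an adhesion receptor of the epididymis, read 4.36, 4.83 and 4.83 on the agonist arrays, 5.03, 5.12 and 5.15 on the GPR39 arrays, and 4.82, 5.17 and 4.91 on the mock arrays. Its -0.42 in agonist against GPR39 did not pass (limma, adjusted p = 0.125), although those groups did not overlap.

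GPR83 differed by 0.28 in agonist against GPR39 (limma, adjusted p = 0.0667) and by 0.22 in agonist against mock (limma, adjusted p = 0.107). GPR25 differed by 0.48 in agonist against mock, the highest value there in the family of other class A and unclassified receptors (limma, adjusted p = 0.0719). GPR161, a receptor of the primary cilium that restrains hedgehog signalling, did not pass in any comparison. It read 5.04, 4.95 and 5.01 on the agonist arrays, 5.01, 5.01 and 4.97 on the GPR39 arrays, and 5.01, 5.09 and 5.0 on the mock arrays. Wide spread within groups marked GPR20, at 4.38, 4.34 and 4.24 on the agonist arrays, 3.85, 4.32 and 4.36 on the GPR39 arrays, and 4.39, 5.01 and 4.35 on the mock arrays, where 1 GPR39 array and 1 mock array stood off from the rest.

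Genes that act with these receptors were taken from 4 lists, chosen with earlier results of these data known. Of receptor trafficking and accessory genes 19 were tested, with 1 higher and 3 lower in agonist against GPR39, 1 higher and 2 lower in agonist against mock and none in GPR39 against mock. Their medians were -0.08, -0.08 and 0.05, against 0.01, 0.02 and 0.01 over all probe sets tested. Of all probe sets tested 3.12% were called higher and 5.95% lower in agonist against GPR39, and 6.11% and 8.94% in agonist against mock. In GPR39 against mock these were 0.749% and 0.422%. The same shares are the background for the calls of the lists that follow. HOMER1, a scaffold that ties group I metabotropic glutamate receptors to their partners and has an activity-induced short form, read 9.76, 9.82 and 9.65 on the agonist arrays, 7.74, 7.82 and 7.82 on the GPR39 arrays, and 7.32, 7.43 and 7.50 on the mock arrays. It rose by 1.95 ± 0.08 in agonist against GPR39 and by 2.33 ± 0.08 in agonist against mock, with no overlap of arrays (limma, adjusted p at most 0.000505 over the alternatives). HOMER2 and HOMER3 were not called.

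REEP4, REEP5 and REEP6, whose proteins shape the endoplasmic reticulum, were lower in agonist against GPR39, by -0.51, -0.46 and -0.53. REEP5 averaged 7.91 ± 0.06 in the agonist arrays, 8.37 ± 0.02 in the GPR39 arrays and 8.44 ± 0.06 in mock (SD, n = 3 each). REEP4 averaged 6.13 ± 0.07, 6.63 ± 0.09 and 6.58 ± 0.09 in the agonist, GPR39 and mock arrays. The calls of REEP4 and REEP5 held under all alternatives. That of REEP6 (limma, adjusted p = 0.0352) was lost in 10 of 19 alternatives. Among them were no filter, quantile normalization, only the 2 groups compared and the replicate block. The others left out agonist replicate 1 or 2, GPR39 replicate 2 or 3, or mock replicate 2 or 3.

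Among receptor kinase and arrestin genes, the beta-arrestin genes ARRB1 and ARRB2 and the kinase genes GRK2 and GRK3 had no named probe set. Of the 9 genes tested ARRDC4, an alpha-arrestin, was the only call. It read 7.83, 8.09 and 7.84 on the agonist arrays, 6.31, 6.45 and 6.24 on the GPR39 arrays, and 6.65, 6.73 and 6.59 on the mock arrays. It rose by 1.59 ± 0.10 in agonist against GPR39 (limma, adjusted p = 0.000102) and by 1.27 ± 0.10 in agonist against mock (limma, adjusted p = 0.000126). Its difference of -0.32 in GPR39 against mock did not pass (limma, adjusted p = 0.182). The list medians were -0.04 in agonist against GPR39, 0.07 in agonist against mock and 0.11 in GPR39 against mock. The kinase genes GRK4, GRK5 and GRK6 were above the percentile on all 9 arrays without a call.

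Of 11 tested partners of adhesion receptors, RECK, UNC5C and UNC5B passed. RECK, which with the adhesion receptor ADGRA2 forms the receptor complex for WNT7 ligands, read 4.75, 4.52 and 4.53 on the agonist arrays, 5.22, 4.99 and 5.10 on the GPR39 arrays, and 5.58, 5.71 and 5.57 on the mock arrays. It fell by 1.02 on the log2 scale in agonist against mock (limma, adjusted p = 0.000353) and by 0.50 in agonist against GPR39 (limma, adjusted p = 0.0155). The call against GPR39 was lost without GPR39 replicate 1 or 3. In GPR39 against mock its -0.52 passed at an adjusted p of 0.0491 in limma and was lost in 15 of 19 alternatives. ADGRA2 itself averaged 4.48 ± 0.11 in the agonist arrays, 4.39 ± 0.03 in the GPR39 arrays and 4.46 ± 0.18 in mock (SD, n = 3 each), and it is named after its values were seen.

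UNC5B and UNC5C encode netrin receptors that also bind FLRT proteins. UNC5C read 4.10, 4.48 and 4.09 on the agonist arrays, 4.63, 4.41 and 4.54 on the GPR39 arrays, and 5.17, 5.21 and 5.39 on the mock arrays. It changed by -1.03 ± 0.12 in agonist against mock (limma, adjusted p = 0.0012) and by -0.73 ± 0.12 in GPR39 against mock (limma, adjusted p = 0.0365). The second call was lost in 10 of 19 alternatives, with adjusted p up to 0.142. UNC5B rose by 0.41 ± 0.09 in agonist against GPR39 (limma, adjusted p = 0.028). It lost the call without any single GPR39 array or agonist replicate 1 or 3, with only the 2 groups compared and with the replicate block. The list medians were 0.09 in agonist against GPR39, -0.04 in agonist against mock and -0.15 in GPR39 against mock.

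Of 6 tested ligand genes, GPC4, a glypican that binds the class C receptor GPR158, fell in agonist against mock. It read 6.41, 6.45 and 6.17 on the agonist arrays, 6.72, 6.65 and 6.75 on the GPR39 arrays, and 7.04, 6.99 and 7.22 on the mock arrays, a change of -0.74 ± 0.10 (limma, adjusted p = 0.00183). No groups overlapped. GPR158 itself averaged 2.98 in the agonist arrays, 2.93 in the GPR39 arrays and 2.77 in mock, without a call. The list medians were 0.05, -0.07 and -0.11 in agonist against GPR39, agonist against mock and GPR39 against mock.

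**Figure D4:**
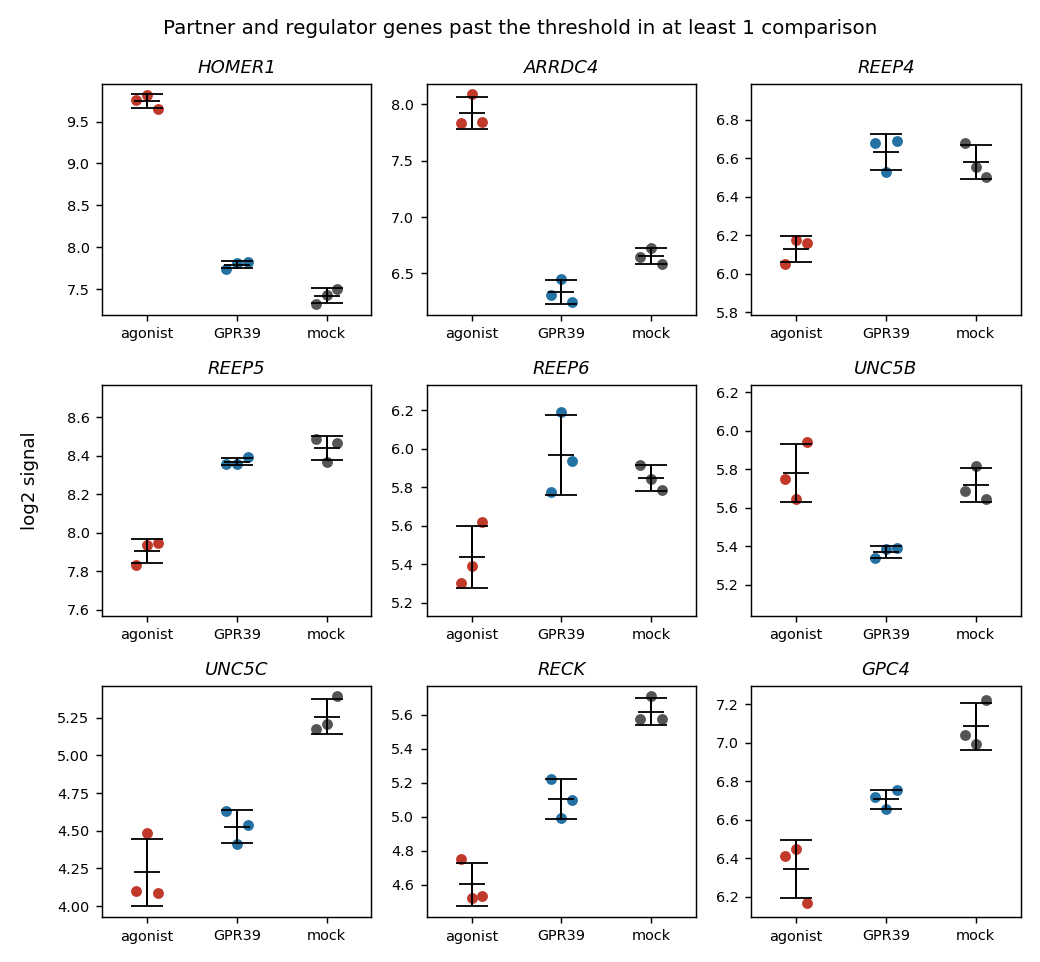
Log2 signal (y axis) of the 9 partner and regulator genes past the threshold in at least 1 comparison, by group (x axis), with each array as a point and the mean and SD of 3 arrays in black. Each panel has its own y axis, and HOMER1 and ARRDC4 are highest and RECK and GPC4 lowest on the agonist arrays.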

How the data were processed

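RNA of 9 HEK293 samples was labelled with biotin by an Affymetrix procedure, per the labels' protocols. The authors deposited 1 signal for each probe set, taken here as log2 because the values lie between 0.717 and 13.50. MAS5 was named per the submitters' processing notes, and how background, scaling and logs were handled is not stated there. Array data give no read depth, and 3 arrays per group limit the precision. Symbols came from the platform annotation and, matched to RefSeq (GRCh38.p14) through Entrez identifiers, no member's name differed. It names 16098 of 53617 probe sets.

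All 9 arrays were fitted in limma 3.58.1 (R 4.3.3; lmFit, eBayes) over the 33376 probe sets whose signal exceeded the array's 40th percentile on at least 3 arrays, with no pseudocount. P-values are two-sided and were adjusted by Benjamini-Hochberg across those 33376, at a threshold of 0.05. The fit was tested on simulated data. Named members are the 12 with the highest mean, those past the threshold and the 3 nearest to each side of the percentile, plus list genes past the threshold. Members and lists were chosen with earlier results of these data known. Alternatives changed the filter, scaling, arrays, variance prior, repeated rows, probe set summary or replicate block.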

Additional observations from a re-analysis of the deposited data

How the results depend on the processing

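Over the alternatives, 1227 values of single named genes kept their sign and their side of the threshold, 104 lost a call and 8 gained one. The other 33 changed sign without passing the threshold in either setting, among them values of GPR89A, GPR89B, GPR137B, GPR108 and ADGRL2, and were at most 0.08 log2 units in size. Leaving out 1 array at a time gave 1 member called higher and 0 to 2 called lower in GPR39 against mock, 0 to 1 called higher and 1 to 3 called lower in agonist against GPR39, and 2 to 3 called higher and 1 to 3 called lower in agonist against mock. In GPR39 against mock, GPR37 made the count of lower members 1, against 0, under the stricter filter and with eBayes trend and robust. With only the 2 groups compared, agonist against GPR39 had 1 higher and 1 lower, against 0 and 3, and agonist against mock had 1 lower, against 4. The count of 4 became 2 without a filter, with centring on the 75th percentile, with quantile normalization and with the replicate block. Of the 4 only GPR37 kept its call with the replicate block. The count of 2 there thus includes a member not called lower in the main fit. The number of members above the percentile stayed within 1.5 times the 71, from 55 above the array median to 78 above the 30th percentile.

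Same-numbered arrays were not paired by the data. The correlations of their deviations ran from -0.101 to 0.0647, and in 2 of 18 cases an array correlated best with its own number. With the replicate block over all probe sets, 102 were higher and 48 lower in GPR39 against mock, against 250 and 141 without it, 686 and 1133 in agonist against GPR39, against 1040 and 1985, and 1585 and 2370 in agonist against mock, against 2039 and 2983. The causes of these changes were not tested. List genes were run through the same alternatives as a choice made after seeing the data.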
